A study of Arabidopsis thaliana with 4 samples.

Results

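Cytochrome P450 genes were followed in axillary shoots and buds of Arabidopsis thaliana. A probe set, the group of short probes that reads 1 transcript, was included when the array's platform annotation gave it exactly 1 locus and that locus carried a cytochrome P450 symbol, written as CYP, a family number from the P450 range and a subfamily letter. This rule found 23 probe sets of 23 loci among 22746 probe sets that were not controls, of which 13436 had 1 locus. The TAIR10.1 gene table lists 236 loci with such a symbol, so most of the superfamily is not analysed here. The members belonged to 5 of the 40 P450 families in that table: 19 of them were CYP71 genes, all of the subfamily CYP71B, and the others were CYP78A9, CYP79A2, CYP84A4 and CYP51G2. A further 2 probe sets listed several genes including a P450 and were not used.

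RNA came from wild-type plants of the Col-0 accession, grown in soil mix at 22 °C under continuous light. Axillary shoots taken 24 h after decapitation were measured on 2 arrays and axillary buds taken before decapitation on 2 arrays. In decapitation the tip of the main shoot is cut off, after which axillary buds can grow out. No plants left intact until the later time were sampled, so decapitation, wounding, age, harvest time and tissue make-up cannot be told apart. Higher and lower name the shoots against the buds and not a cause.

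Cytochromes P450 are haem enzymes, most of them anchored in the endoplasmic reticulum, that use molecular oxygen and electrons from NADPH to oxidise small molecules. In plants they make and break down hormones, build lignin precursors, pigments and the cuticle, and produce defence compounds. CYP71 is among the largest P450 families of Arabidopsis. Its best known CYP71B gene, PAD3 (CYP71B15), encodes an enzyme of the synthesis of camalexin, an indole defence compound. No probe set met the rule for PAD3, so it is not among the genes followed here. Many other CYP71B genes lie side by side in the genome and have no substrate that is generally agreed on.

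Signals were linear intensities scaled to a common level on each array, with medians of 40.9 and 40.6 on the shoot arrays and 46.4 and 43.6 on the bud arrays. The 3′ actin control divided by the 5′ one gave 0.990 and 1.14 on the shoot arrays and 1.66 and 1.38 on the bud arrays. Its part in the results was not tested. In these bulk samples, fewer cells of a type and less RNA per cell cannot be told apart. The 27 control probe sets for Bacillus subtilis genes, which have no target in plant RNA unless a control was added, read from 0.200 to 10.2 with a median of 2.40. With 4 arrays the precision of each value is limited, and the smallest two-sided p that exact permutation of the 4 arrays allows is 0.333.

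Of the P450 genes that passed the filter on dim probe sets, 6 of 8 were lower in the shoots than in the buds. This filter, a geometric mean signal of at least 23.1 over the 4 arrays, left 8 of the 23 genes, all CYP71B. CYP71B23 and CYP71B5 passed it only through their bud signals, since both of their shoot signals were under 23.1, so a difference was built into their selection. Of the 8 genes, CYP71B5, CYP71B22, CYP71B23, CYP71B26, CYP71B28 and CYP71B34 fell (limma, adjusted p of 0.05 or less after Benjamini and Hochberg). None of the 8 rose, also at an unadjusted p of 0.05 or less, and the other 2, CYP71B6 and CYP71B35, did not pass. A stricter filter, which left out CYP71B5, CYP71B23 and CYP71B35, called 4 of the other 5 genes lower. Among all 13648 probe sets tested, 12.0% fell and 10.2% rose, or 1635 against 1388. This balance turned with the scaling: 1446 fell and 1576 rose with quantile normalization, and 1386 fell and 1640 rose with equal array medians. The median log2 fold change of shoots over buds was −0.90 over the 8 P450 genes and −0.06 over all tested probe sets. Over the 5 genes left by the stricter filter, without CYP71B23 and CYP71B5, the median was also −0.90. In all 8 genes both shoot arrays lay below both bud arrays, which was so for 35.5% of all tested probe sets. Both lay above for 29.7%. CYP71B23 and CYP71B5 are among the 8, so the filter built part of the count, the median and this separation in. The 15 other genes were too dim to be tested. The counts, the median and the separation of the arrays therefore describe the genes that passed the filter and do not stand for the P450 genes as a whole. The count of genes that fell rested on single arrays: it was 1 without shoot array 1, 2 without bud array 2, 3 without bud array 1 and 4 without shoot array 2.

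**Figure D1:**
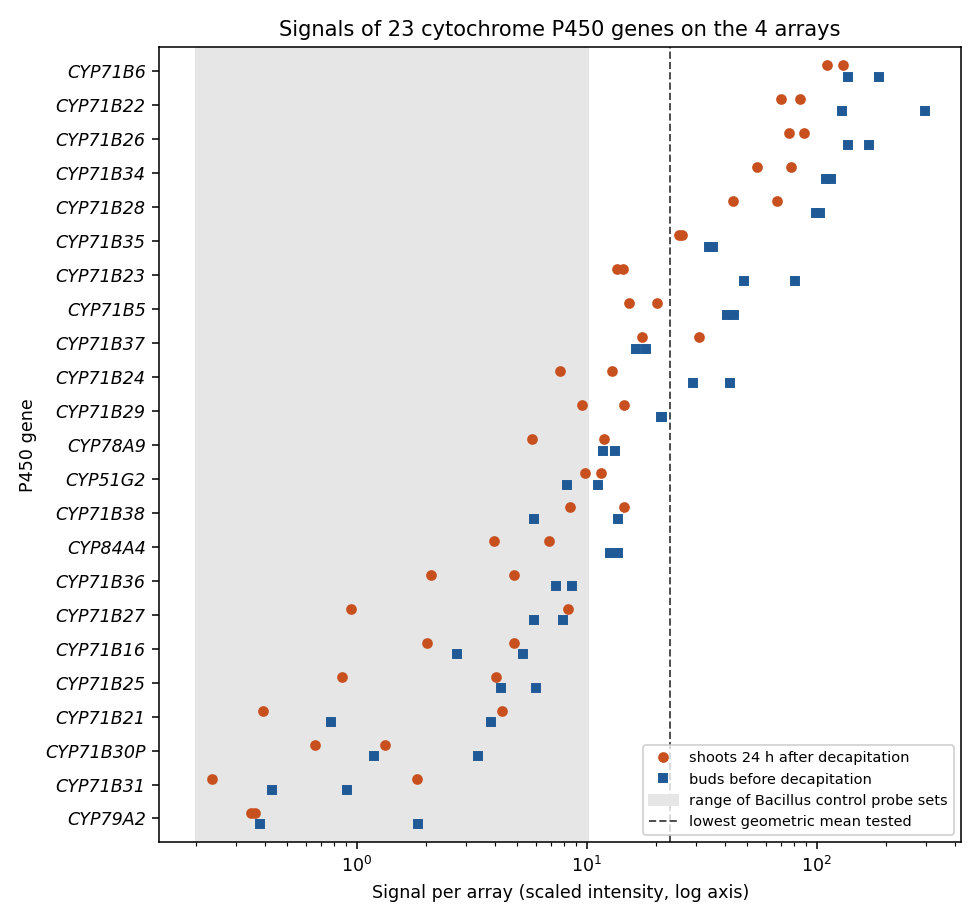
Signals of the 23 P450 genes on each of the 4 arrays, on a log axis, with circles for the 2 shoot arrays and squares for the 2 bud arrays, ordered by geometric mean. Grey marks the range of the Bacillus control probe sets, 0.200 to 10.2, and the dashed line the lowest geometric mean tested, 23.1; the circles lie left of the squares in the 8 genes at the top, and signals of different probe sets are not comparable as transcript levels.

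CYP71B23 (AT3G26210) had the largest decrease among the tested P450 genes. Its signal was 13.6 and 14.4 in shoots and 48.4 and 80.6 in buds. Both shoot arrays were far below the bud arrays and under the filter level of 23.1, so the gene was tested only because of its bud signals. The shoot signals lay just above the highest control signal of 10.2, which leaves the size of the fold uncertain. The fitted decrease was 4.47-fold (log2 fold change −2.16, SE 0.33, adjusted p = 0.00545, limma). Of all tested probe sets, 0.755% had a lower log2 fold change. With 1 array left out its fold lay between 3.47 and 5.76. Those fits kept the probe sets that the filter chose from all 4 arrays. They therefore cannot show the effect of the selection of CYP71B23 through its bud signals. Its call held in the 6 other alternative fits that tested it, on the same 4 arrays (adjusted p of 0.0133 or less, limma). With a pseudocount of 16 the fold was 2.63.

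CYP71B22 (AT3G26200) is the gene just before CYP71B23 in gene order. It read 84.9 and 70.2 in shoots, against 129 and 295 in buds. The groups did not overlap, and the bud arrays differed from each other by more than the shoot arrays did. The mean was 77.5 ± 10.4 in shoots and 212 ± 117 in buds (SD, n = 2 each), and the fitted decrease was 2.53-fold (log2 fold change −1.34, SE 0.36, adjusted p = 0.0323, limma). Without bud array 1 the fold was 3.82. Without bud array 2 it was 1.67 and the call was lost (adjusted p = 0.0890). Leaving out shoot array 1 or shoot array 2 also ended it, at adjusted p of 0.0926 and 0.101, and so did testing all probe sets with no filter, at 0.0592.

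CYP71B24 (AT3G26230) stands 2 places beyond CYP71B23 in gene order, after CYP71B3, for which no value is given. Its signals of 7.70 and 12.9 in shoots lay within or near the range of the controls, and those of 29.0 and 42.2 in buds lay above it. Its geometric mean was under the filter, so it was not tested in the main fit. With no filter, in a fit over all 22746 probe sets of which 5.60% fell, it had a log2 fold change of −1.81 and an adjusted p of 0.0379.

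CYP71B26 (AT3G26290) and CYP71B34 (AT3G26300) lie further along the same stretch. CYP71B26 read 88.2 and 76.2 in shoots and 169 and 137 in buds, with shoots below buds on every array. It was 1.86-fold lower (log2 fold change −0.90, SE 0.22, adjusted p = 0.0243, limma). Leaving out bud array 1, shoot array 1 or shoot array 2 ended the call, at adjusted p of 0.0991, 0.0825 and 0.0953. CYP71B34 read 55.3 and 77.5 in shoots and 116 and 109.8 in buds. The bud arrays were close together and both above the shoot arrays. This gene was 1.72-fold lower (log2 fold change −0.79, SE 0.24) and passed narrowly, with an adjusted p of 0.0496. Leaving out shoot array 1, bud array 1 or bud array 2 put it above the threshold, at adjusted p of 0.281, 0.133 and 0.0835. It was above it too with no filter, with no variance trend and with both other scalings, at adjusted p from 0.0575 to 0.0743.

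CYP71B35 (AT3G26310) is the next gene after CYP71B34. Its signals were 26.0 and 25.3 in shoots and 33.9 and 35.4 in buds. The groups did not overlap and the replicates were close, but the fitted log2 fold change of −0.44 (SE 0.27) did not pass (adjusted p = 0.280, limma), nor did it in any of its 10 alternative fits, where adjusted p lay between 0.171 and 0.511. Its neighbour CYP71B36 (AT3G26320) read 2.1 and 4.84 in shoots and 8.61 and 7.34 in buds, all within the range of the control probe sets. CYP71B37 (AT3G26330), the last P450 gene of the stretch, read 30.7 and 17.4 in shoots and 18.2 and 16.4 in buds. Its groups overlapped, and it was the untested gene closest to the filter.

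**Figure D2:**
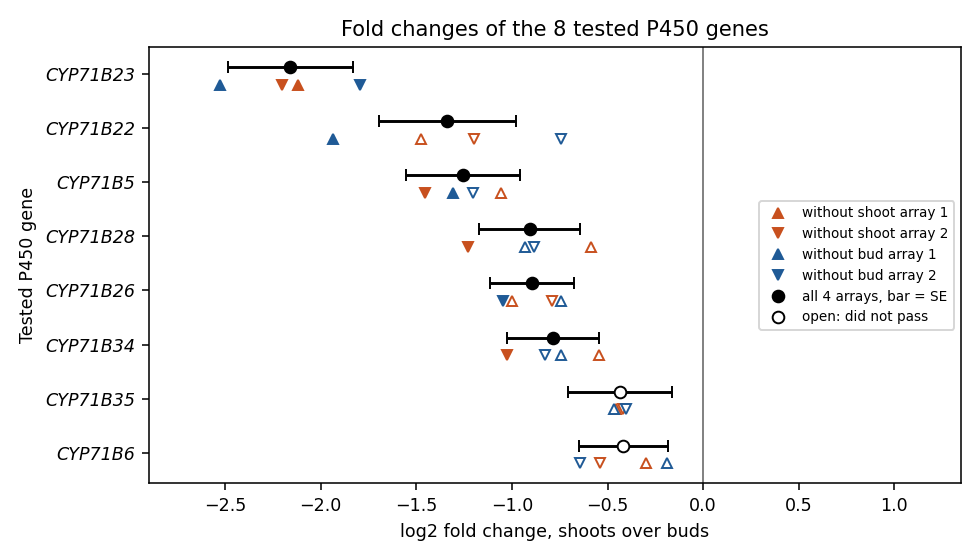
Log2 fold changes of shoots over buds for the 8 tested P450 genes, with black circles for all 4 arrays, bars for the SE, and triangles for fits that leave out 1 array; filled symbols passed the test. All symbols lie below 0, and CYP71B23 is the gene whose 4 triangles are all filled.

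CYP71B5 (AT3G53280) lies elsewhere on chromosome 3. It read 15.3 and 20.2 in shoots and 40.6 and 43.6 in buds. Both shoot arrays were under the filter level of 23.1 and both bud arrays above it, so this gene too was tested only because of its bud signals. The decrease was 2.39-fold (log2 fold change −1.26, SE 0.30, adjusted p = 0.0213, limma). Without shoot array 1 the adjusted p was 0.134, and without bud array 2 it was 0.0559, so neither fit kept the call. Its neighbours had low signals. CYP71B30P had 1.33 and 0.660 in shoots and 1.19 and 3.39 in buds. CYP71B31 had 1.83 and 0.235 in shoots and 0.428 and 0.909 in buds. In both, the groups overlapped within the range of the controls.

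CYP71B28 (AT1G13090) lies on chromosome 1. Its signals were 43.2 and 67.5 in shoots and 99.6 and 103 in buds. The shoot arrays differed from each other more than the bud arrays did, and all shoot signals were below all bud signals. The decrease was 1.88-fold (log2 fold change −0.91, SE 0.27, adjusted p = 0.0432, limma). The call did not hold when shoot array 1, bud array 1 or bud array 2 was left out, with adjusted p of 0.254, 0.0882 and 0.0878. Nor did it hold with no filter, with equal array medians or with quantile normalization, where adjusted p was 0.0691, 0.0595 and 0.0621. Its neighbour CYP71B29 (AT1G13100), which was not tested, read 9.53 and 14.6 in shoots and 21.2 and 21.1 in buds. CYP71B27 (AT1G13070), a transcribed pseudogene in the gene table, read 0.946 and 8.33 in shoots and 5.92 and 7.92 in buds, where the groups overlapped.

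CYP71B6 (AT2G24180) is the tested member with an entry in the list of known roles: its product acts on indole-3-acetonitrile, an intermediate of the indole defence compounds. It read 110.5 and 130.4 in shoots and 188 and 137 in buds. The groups did not overlap, but shoot array 2 and bud array 2 were close together. The log2 fold change of −0.42 (SE 0.23) did not pass (adjusted p = 0.227, limma), and adjusted p lay between 0.114 and 0.682 in its 11 alternative fits.

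The remaining CYP71B genes were dim. CYP71B38 (AT3G44250) read 8.45 and 14.5 in shoots and 13.7 and 5.92 in buds. CYP71B16 read 2.03 and 4.84 in shoots and 5.28 and 2.73 in buds. CYP71B21 read 4.30 and 0.391 in shoots and 3.84 and 0.775 in buds. In these 3 genes the groups overlapped. CYP71B25 read 0.865 and 4.04 in shoots and 4.24 and 6.0 in buds, with shoots below buds and all signals within the range of the controls.

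**Figure D3:**
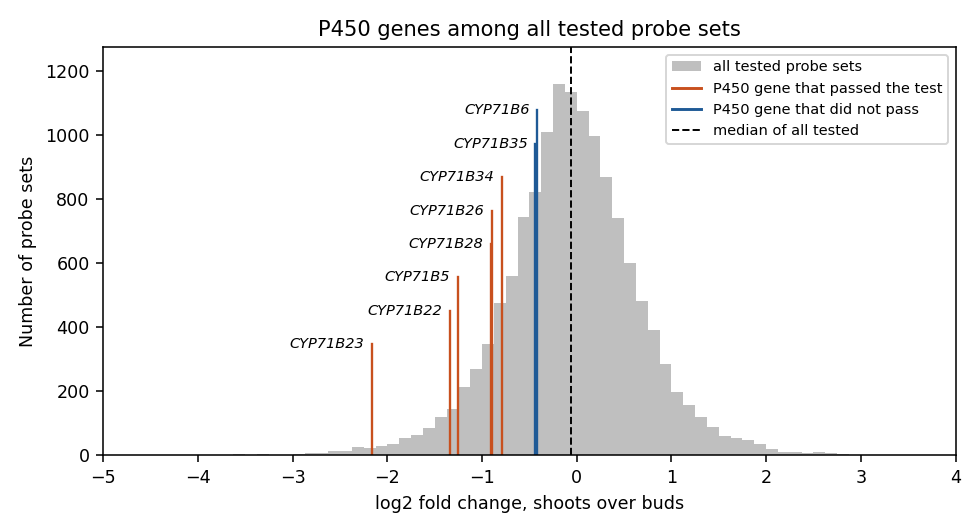
Histogram of the log2 fold changes of shoots over buds for the 13648 tested probe sets, with a vertical line for each of the 8 tested P450 genes and a dashed line at the median of −0.06. All 8 lines lie left of the median, from −2.16 for CYP71B23 to −0.42 for CYP71B6; their heights only separate the names.

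The 4 members outside CYP71B were all dim, and none was tested. CYP84A4, which acts in the synthesis of arabidopyrones from phenylpropanoids, read 3.97 and 6.88 in shoots and 12.6 and 13.7 in buds. Its shoot signals lay within the range of the controls and its bud signals a little above it; with no filter its log2 fold change was −1.33 (adjusted p = 0.163). CYP78A9, a gene that promotes growth of fruits and seeds, read 5.78 and 11.9 in shoots and 11.8 and 13.3 in buds, and the groups overlapped. CYP79A2, whose product turns phenylalanine into an aldoxime for benzylglucosinolate, read 0.362 and 0.347 in shoots and 1.86 and 0.380 in buds. All of its signals were within the range of the controls. CYP51G2, a transcribed pseudogene related to the sterol demethylase gene of the family, read 11.6 and 9.80 in shoots and 11.2 and 8.25 in buds, with overlapping groups.

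Over the 15 untested genes, both shoot arrays lay below both bud arrays in 6, both lay above in 0, and the groups overlapped in 9. Of the 9098 probe sets under the filter, 26.6% had both shoot arrays below both bud arrays. The shares that lay above or overlapped were not counted, so the 0 above and 9 overlapping are not a result about the P450 genes. For 8 of the 23 genes no array exceeded the highest control signal. Signals of this size do not show whether a gene was transcribed. A fit with no filter on all 23 genes called 4 lower, CYP71B5, CYP71B23, CYP71B24 and CYP71B26, and 0 higher, where 5.60% of all probe sets fell and 4.45% rose.

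Where the members lie in the genome depends on which loci the platform annotation names. The gene table has 36 CYP71B symbols among 236 P450 symbols, whereas 19 of the 23 members were CYP71B. Their positions are therefore not a result about P450 genes as a whole. In the order of genes in TAIR10.1, 11 of the 23 lay in 1 stretch of chromosome 3 from CYP86C2 (AT3G26125) to CYP71B37 (AT3G26330), a stretch of 29 genes with 19 P450 symbols in which neighbouring P450 genes were at most 10 places apart. Of these 11 genes, 5 were tested and 4 fell, namely CYP71B22, CYP71B23, CYP71B26 and CYP71B34. Of the 8 CYP71B genes outside it 3 were tested and 2 fell, CYP71B5 and CYP71B28. Over all tested probe sets 12.0% fell and 10.2% rose, and CYP71B23 and CYP71B5 are the genes that passed the filter only through the buds. Among other genes inside the stretch or within 20 genes of its ends, 10 probe sets were tested, of which 2 fell and 2 rose. Their median log2 fold change was −0.21. The difference between the P450 genes and their neighbours was not tested. Within the stretch, the fitted log2 fold changes of CYP71B22 and CYP71B23 were −1.34 and −2.16, and those of CYP71B26, CYP71B34 and CYP71B35 were −0.90, −0.79 and −0.44. Closely related copies can share probe matches, so values of single members are uncertain.

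**Figure D4:**
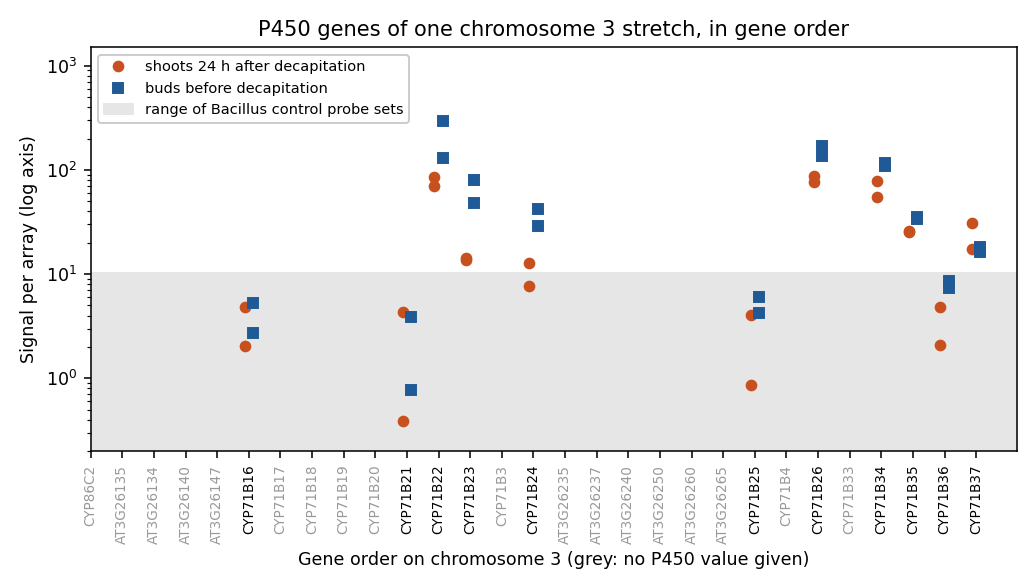
Signals on each array, on a log axis, of the 11 members in the chromosome 3 stretch, placed in gene order and not by distance, with circles for shoots, squares for buds and grey for the range of the Bacillus control probe sets. Among the genes with all signals above the grey band, the circles lie below the squares for CYP71B22, CYP71B23, CYP71B26, CYP71B34 and CYP71B35 and overlap them for CYP71B37; those of CYP71B24 also lie below its squares, with 1 circle inside the band.

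Genes that act with P450 enzymes or in the same pathways were sparsely covered. Of 148 loci in 10 lists, on redox partners and on the gibberellin, brassinosteroid, abscisic acid, carotenoid and strigolactone, cytokinin, jasmonate, glucosinolate and camalexin, phenylpropanoid, and cutin pathways, 8 had a named probe set and 7 were tested. Of the 7, 0 fell and 0 rose with limma, also at an unadjusted p of 0.05 or less. Over all tested probe sets 12.0% fell and 10.2% rose, so 0 of 7 does not show that these pathways were unchanged. ATR3 (AT3G02280), from the list of diflavin reductases and cytochromes b5 that pass electrons on, read 59.8 and 40.2 in shoots and 49.8 and 47.7 in buds (log2 fold change 0.01, adjusted p = 0.984, limma). LYC, a lycopene cyclase gene of carotenoid synthesis, read 173 and 233 in shoots and 251 and 219 in buds, with overlapping groups.

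The glucosinolate list held 4 of the tested genes. BCAT4, an aminotransferase gene that starts the chain elongation of methionine, read 63.6 and 235 in shoots and 203 and 272 in buds. The shoot arrays were far apart (log2 fold change −0.94, adjusted p = 0.217, limma), and it passed without shoot array 2 (log2 fold change −1.89, adjusted p = 0.00720) or with a replicate block (adjusted p = 0.0266). GSTU20, a glutathione transferase gene linked to the pathway, read 749 and 874 in shoots and 613 and 681 in buds. Both shoot arrays lay above both bud arrays (log2 fold change 0.33, adjusted p = 0.295, limma), which was so for 29.7% of all tested probe sets. UGT74B1, whose product adds the glucose, read 186 and 237 in shoots and 185 and 196 in buds. UGT74C1 (AT2G31790) read 89.8 and 227 in shoots and 118 and 157 in buds. In these last 2 genes the groups overlapped.

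Of the phenylpropanoid genes, HCT, an acyltransferase gene that acts just before the P450 step of 3-hydroxylation, read 370.0 and 469 in shoots and 564 and 495 in buds. Its shoot arrays were both below the bud arrays (log2 fold change −0.34, adjusted p = 0.282, limma), which was so for 35.5% of all tested probe sets. CCR2, a cinnamoyl-CoA reductase gene, read 0.664 and 0.424 in shoots and 4.35 and 2.13 in buds, all within the range of the controls.

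Of 43 markers of tissues and cell types 5 had a named probe set. LAS, a gene of axillary meristem formation, read 19.6 and 16.1 in shoots and 15.4 and 16.7 in buds. LHCB4.1, a light-harvesting gene of leaf mesophyll, read 849 and 710 in shoots and 639 and 431 in buds (log2 fold change 0.57, adjusted p = 0.137, limma). LHCB4.2 read 922 and 1185 in shoots and 1105 and 1029 in buds. The trichome patterning gene TRY, the only 1 of 4 listed trichome genes with a named probe set, was at 17.7 and 17.5 in shoots and 32.5 and 26.1 in buds. Its geometric mean was under the filter, so it was not tested in the main fit. With no filter its adjusted p was 0.211 (limma). Both of its shoot arrays lay below both bud arrays, which held for 26.6% of the probe sets under the filter. The part of TRY in the P450 result was not tested. EXPA7, a root hair gene, was between 3.77 and 6.27 on all arrays, within the range of the controls. No marker of epidermis, xylem, phloem or flower had a named probe set, so the tissue make-up of the samples was hardly checked.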

How the data were processed

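Biotin-labelled total RNA was read on ATH1 arrays, short-oligonucleotide GeneChips, per the labels. The authors deposited linear intensities; MAS5 and GCOS are the tools that the submitters' processing notes name, with no version. After trimming 2% of probe sets at each end, the mean of every array was 100.0, so the values carry no information on total RNA per cell. Detection calls were not used here. Log2 intensities without a pseudocount were compared with limma 3.58.1 in R 4.3.3 (eBayes with an intensity trend) over the upper 60% of 22746 non-control probe sets by mean log2 signal, 13648 in all; 64 controls were left out. Benjamini-Hochberg adjustment ran over all tested probe sets, with a threshold of 0.05. The procedure was run on simulated data with independent noise on each array. Such data cannot show the effect of selection by the filter or of technical replicates. The labels number the replicates but do not state that they came from separate plants, so p-values reflect only the spread among these arrays, which may be technical. Genes were named through the platform annotation and the TAIR10.1 gene table; no sequences were used here. The members, lists and tests were chosen with earlier results of these data known. By rule, the text names each member that passed, each tested member with a listed role and the ends of each family; the other members were added so that each is accounted for. Alternatives changed the filter, the scaling, a pseudocount of 16, the variance trend, a replicate block and single arrays.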

Additional observations from a re-analysis of the deposited data

How the results depend on the processing

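In the 11 alternative fits the 8 tested P450 genes kept a negative log2 fold change in all 85 fits of a gene. This sign had little room to change. In all 8 genes both shoot arrays lay below both bud arrays, so leaving out 1 array could not turn it. Nor could the filter, the pseudocount, the variance trend or the block, which left only the other scalings. The 6 genes that passed often lost their call, as the counts that follow show. The number of P450 genes called lower, 6 of 8, was 6 with a pseudocount of 16 or a replicate block, 5 with no variance trend, 4 with quantile normalization or equal array medians, 4 of 5 with the stricter filter and 4 of 23 with no filter. It was 1 to 4 with 1 array left out, and 0 were called higher in any fit. The median log2 fold change of the tested P450 genes lay between −1.12 and −0.79 with 1 array left out. Each of the 23 loci had 1 probe set, so taking the brightest changed nothing. With 1 array left out, probe sets called lower over the whole array numbered 432 to 1468, against 1635, and those called higher 230 to 1181, against 1388; linked pathway genes called lower numbered 0 to 1. With the replicate number as a block, 2548 probe sets were called lower and 2109 higher, and 1 linked pathway gene, BCAT4, was called lower; the block changed no P450 call. Deviations of same-numbered arrays correlated at 0.225, and with only 2 numbers this does not show that they pair the samples. The cause of these changes was not tested. Genes near or within the range of the controls are limited by signal over background.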

Other observations

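Enzyme families that act after P450s on small molecules were looked at beside them, chosen by symbol after the P450 values were seen. Of 47 UDP-glycosyltransferase probe sets, whose genes encode enzymes that attach sugars, 20 were tested, of which 5 fell and 2 rose in the shoots (limma, adjusted p of 0.05 or less), with a median log2 fold change of −0.20. Of 14 glutathione S-transferase probe sets 6 were tested and 2 fell, with a median log2 fold change of −0.45. Among all tested probe sets 12.0% fell and 10.2% rose. Differences between these families and the P450 genes were not tested.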
